A study of Saccharomyces cerevisiae with 4 samples.

Results

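MPD1, MPD2, EPS1, FPR2, CPR5 and CNE1 encode budding yeast proteins that work on folding in the endoplasmic reticulum (ER). They were taken as every probe whose platform annotation gave exactly 1 gene symbol and that symbol was 1 of these 6. Each gene had 1 probe, with a value on all 4 arrays, so 6 of the 3099 named genes with values are described here. The table held 5946 features in all, where a feature is a named gene, its probes averaged, or a probe without a single name.

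Each array was hybridised with RNA of both strains of the comparison, made in the background W303-1A of Saccharomyces cerevisiae. The first strain expressed CadA, a P-type ATPase that moves cadmium, from the bacterium Listeria monocytogenes. The second, named as the control, expressed the D398A mutant of CadA, with alanine in place of an aspartate. The question put to the arrays is which transcripts differ between these strains at the same cadmium dose. Both had been grown at 30 °C in SD minimal medium with all amino acids and adenine to an OD600 of 0.4, and both then received 1 µM cadmium for 1 h, so no array shows cells without cadmium. CadA RNA was labelled with Cy5 and D398A RNA with Cy3 on arrays 1 and 3, and the dyes were swapped on arrays 2 and 4. No source used here gives the promoter or copy number of the transporter genes, or says whether arrays came from separate cultures. A p-value thus measures the spread between these 4 arrays, which could be technical.

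The values are ratios between the strains on 1 array, taken as log2, and carry no level of either strain. Neither the dye in the numerator nor any earlier turning of the swapped arrays is recorded in the table. Both readings are therefore given. In turned signs the values of arrays 1 and 3 were flipped, so that a difference between strains adds up over arrays, and the positive side is the one on which KAR2 lies, the gene of the Hsp70 chaperone of the ER. No strain is named for that side. In deposited signs nothing was flipped. If the table had been turned already, the deposited means are the strain differences and the turned means are dye effects. If it had not, the roles are exchanged.

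Proteins entering the ER fold there with the help of chaperones, of oxidoreductases that form and rearrange disulphide bonds, of prolyl isomerases that turn the peptide bonds before proline, and of lectins that hold glycoproteins until they have folded. When unfolded proteins build up in the yeast ER, the sensor Ire1 splices the messenger RNA of the transcription factor Hac1, which raises many of these genes, KAR2, PDI1, EUG1 and FPR2 among them. EPS1 is known from yeast for its part in holding back a mutant form of the plasma membrane P-type ATPase Pma1 in the ER.

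In turned signs FPR2 and MPD1 had the highest means of the 6 genes, and MPD2 lay on the same side at a smaller size. All 3 were positive on every array, with means of 1.70, 1.45 and 0.30. EPS1, CNE1 and CPR5 had means between -0.16 and 0.07 and were not of 1 sign over the arrays. No member passed the threshold of 0.05 after Benjamini-Hochberg adjustment over all features in limma, in either reading, and 0% of all features did. An unadjusted limma p below 0.05 was reached by MPD1 and FPR2 in turned signs, against 1.88% of all features. No member reached it in deposited signs, against 11.7% of all features. In deposited signs the order differed: EPS1 and FPR2 were highest, at 0.58 and 0.51, and no member was of 1 sign on all 4 arrays. For the 3 genes positive on every array in turned signs, the flip of arrays 1 and 3 fixes this.

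**Figure D1:**
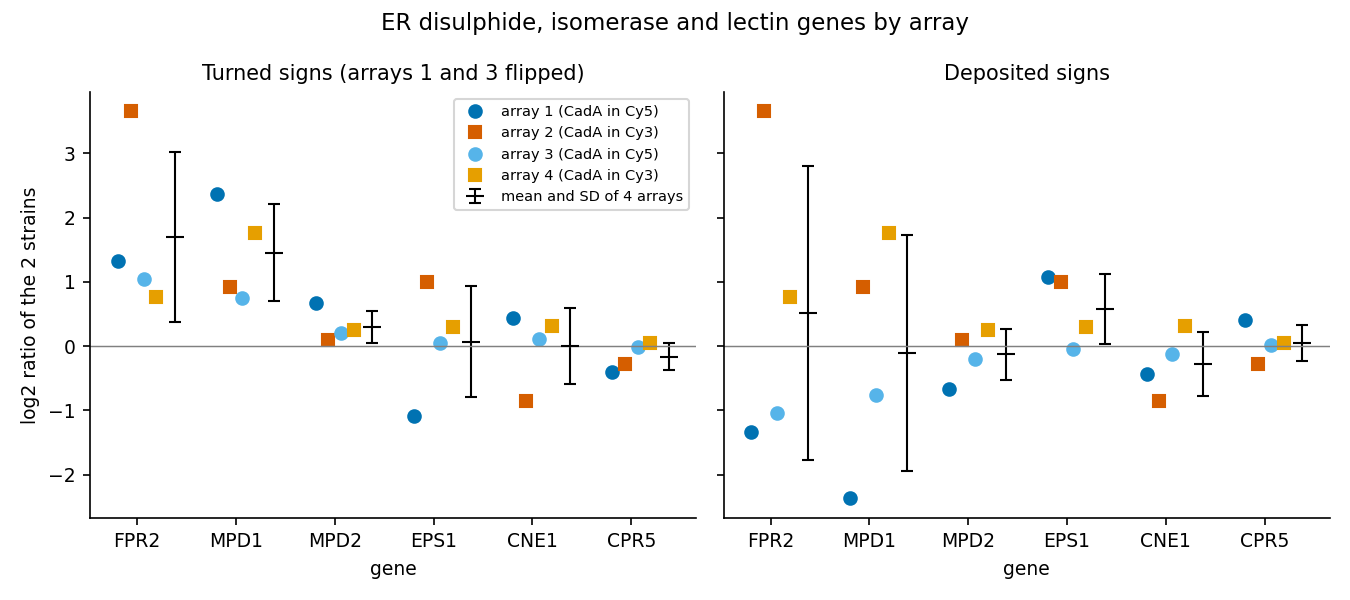
Log2 ratios of the 2 strains for each gene on each array (coloured points) with the mean and SD of the 4 arrays (black bars), in turned signs on the left and deposited signs on the right. In turned signs all 4 points of FPR2, MPD1 and MPD2 lie above 0; in deposited signs the points of arrays 1 and 3 lie below 0 for these genes and those of arrays 2 and 4 above it.

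The disulphide isomerase relatives are MPD1, MPD2 and EPS1. MPD1 encodes a relative of protein disulphide isomerase that can replace Pdi1 when overproduced. In turned signs its log2 ratio was 2.37, 0.93, 0.75 and 1.77 on arrays 1 to 4. Every value lay above 0, and arrays 1 and 4, which differ in dye orientation, were the higher ones. The mean was 1.45 ± 0.75 (SD, n = 4), or 2.74-fold, with a 95% interval of 0.70 to 2.21 from limma. The unadjusted limma p was 0.0018, rank 7 among all features, and the adjusted p was 1.00. In deposited signs MPD1 was negative on both arrays with CadA in Cy5 and positive on both with CadA in Cy3. Its deposited values averaged -1.56 on the first pair and 1.35 on the second, and -0.11 ± 1.84 over all 4 (limma adjusted p = 0.95).

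MPD2 encodes another relative of protein disulphide isomerase. Its turned values were 0.66, 0.10, 0.20 and 0.25 on arrays 1 to 4, all on the same side as those of MPD1 and none as large as that of MPD1 on the same array. The mean was 0.30 ± 0.25 (SD, n = 4), with a 95% interval of -0.30 to 0.91 that includes 0 (limma adjusted p = 1.00). Without array 1 the mean was 0.18. In deposited signs the mean was -0.13 ± 0.40 (limma adjusted p = 0.82). Within arrays, the turned value of MPD1 exceeded that of MPD2 by 1.71, 0.83, 0.55 and 1.52, a mean difference of 1.15 ± 0.55 that was positive on 4 of 4 arrays. With 4 arrays, the smallest p that an exact sign test allows is 0.125. In deposited signs the mean difference was 0.02 ± 1.44, and it was positive on 2 arrays, which the flip of arrays 1 and 3 fixes. MPD1 minus EPS1 was 3.45, -0.08, 0.71 and 1.47 on arrays 1 to 4 in turned signs. Their mean difference of 1.39 ± 1.51 was smaller than its SD, and EPS1 was the higher on array 2. The mean difference was -0.69 ± 2.05 in deposited signs.

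EPS1 encodes a membrane-bound relative of protein disulphide isomerase. Its deposited values were 1.08, 1.001, -0.05 and 0.30 on arrays 1 to 4. Arrays 1 and 2 were high although they differ in dye orientation, and the value on array 3 was close to 0. The deposited mean was 0.58 ± 0.55 (SD, n = 4), with a 95% interval of -0.03 to 1.20 and an unadjusted limma p of 0.061. The adjusted p was 0.44. Without array 3 the deposited mean was 0.79, with an unadjusted limma p of 0.039 and an adjusted p of 0.53. In that setting 548 of 5946 features had an unadjusted p below 0.05. It was the single alternative that took EPS1 below 0.05 unadjusted in deposited signs. With array weights the deposited mean was 0.25. In turned signs arrays 1 and 2 cancelled, at -1.08 and 1.001, and the mean was 0.07 ± 0.86 (limma adjusted p = 1.00). This turned mean changed sign to -0.24 without array 2 and to -0.01 without array 4.

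The prolyl isomerases are FPR2 and CPR5. FPR2 encodes an FK506-binding prolyl isomerase of the ER. In turned signs its log2 ratio was 1.33, 3.66, 1.04 and 0.76 on arrays 1 to 4. All values lay above 0, and array 2 stood far above the rest. The mean was 1.70 ± 1.33 (SD, n = 4), or 3.24-fold, with a 95% interval of 0.67 to 2.72 from limma, whose standard error was 0.46. Without array 2 it was 1.04. The unadjusted limma p was 0.0045 and the adjusted p 1.00. On array 2 the median of the print block that holds the FPR2 probe was 1.53. Relative to its block median FPR2 read 0.84, 2.12, 0.85 and 1.03 on arrays 1 to 4 in turned signs. With every block centred on its median the mean was 1.21 (limma adjusted p = 0.82). In deposited signs FPR2 averaged 0.51 ± 2.29 over the 4 arrays (limma adjusted p = 0.77), with -0.54 without array 2.

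CPR5 encodes a cyclophilin of the ER. Its turned values were -0.41, -0.27, -0.02 and 0.04 on arrays 1 to 4, with arrays 3 and 4 near 0. The mean was -0.16 ± 0.21 (SD, n = 4) in turned signs and 0.05 ± 0.28 in deposited signs, with limma adjusted p-values of 1.00 and 0.94. Without array 1 these means were -0.08 and -0.07. The 95% interval of the turned mean was -0.76 to 0.44. Within arrays, FPR2 exceeded CPR5 in turned signs by 1.74, 3.93, 1.05 and 0.72, a mean difference of 1.86 ± 1.44 on 4 of 4 arrays. In deposited signs the difference was 0.46 ± 2.53, positive on 2 arrays, which the flip of arrays 1 and 3 fixes.

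CNE1 encodes the yeast relative of calnexin, a lectin that binds glycoproteins in the ER. Its turned values were 0.43, -0.86, 0.12 and 0.31 on arrays 1 to 4, with array 2 on its own below 0. They averaged 0.00 ± 0.59 (SD, n = 4; 95% interval -0.69 to 0.70). Without array 2 the mean was 0.29, and without array 1, 3 or 4 it was negative, at -0.14, -0.04 and -0.10. In deposited signs CNE1 was negative on arrays 1, 2 and 3 and averaged -0.27 ± 0.50, or -0.08 without array 2, -0.47 without array 4 and -0.06 with array weights. The limma adjusted p was 1.00 in turned and 0.64 in deposited signs.

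In the order of turned means FPR2 was followed by MPD1, MPD2, EPS1, CNE1 and CPR5. The mean difference of neighbours in this order was smaller than its SD over arrays, except for MPD1 and MPD2. Because the order was made from the same means, this describes the members and tests nothing. FPR2 and MPD1 differed by 0.24 ± 1.77 in turned signs, with FPR2 higher on 2 of 4 arrays. MPD2 and EPS1 differed by 0.24 ± 1.10, EPS1 and CNE1 by 0.07 ± 1.38, and CNE1 and CPR5 by 0.17 ± 0.59. In deposited signs MPD1 minus MPD2 averaged 0.02 ± 1.44. MPD2 minus EPS1 averaged -0.71 ± 0.78 in that reading and was negative on every array.

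Counts over the members were read beside those of all features. In turned signs 3 of 6 members were positive on all 4 arrays, as were 3.4% of all features, and 5 of 6 had a mean above 0, against 47.4%. These 5 include CNE1 at 0.002 and EPS1 at 0.07, whose means were near 0. Both became negative in some fits that left out 1 array. A turned mean of 1 or more, which is at least a doubling in base 2, was found for 2 of 6 members and for 0.891% of features. An unadjusted limma p below 0.05 was found for 2 of 6 members in turned signs, against 1.88% of features. Because the members were chosen with results of these arrays known, these counts describe them and test nothing.

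In deposited signs the members gave no such counts, which is in part fixed by the flip. A gene positive on all 4 arrays in turned signs, as MPD1, MPD2 and FPR2 were, is negative on arrays 1 and 3 in deposited signs. It cannot be of 1 sign there, so for these genes the deposited counts are no separate observation. Of the 6, 3 had a mean above 0, close to the 46.5% of all features. None was positive on all 4 arrays and none was negative on all 4, against 12.4% and 12.3% of features. An unadjusted limma p below 0.05 was found for 0 of 6 members and for 11.7% of features. The mean lay farther from 0 in turned than in deposited signs for 4 members, MPD1, MPD2, FPR2 and CPR5, and for 34.6% of features. For most features the deposited mean was the one farther from 0, as it was for EPS1 and CNE1. The median of the member means was 0.19 in turned signs (0.32 without array 1 and 0.33 without array 2), against -0.015 over all features, and -0.03 in deposited signs, against -0.03.

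**Figure D2:**
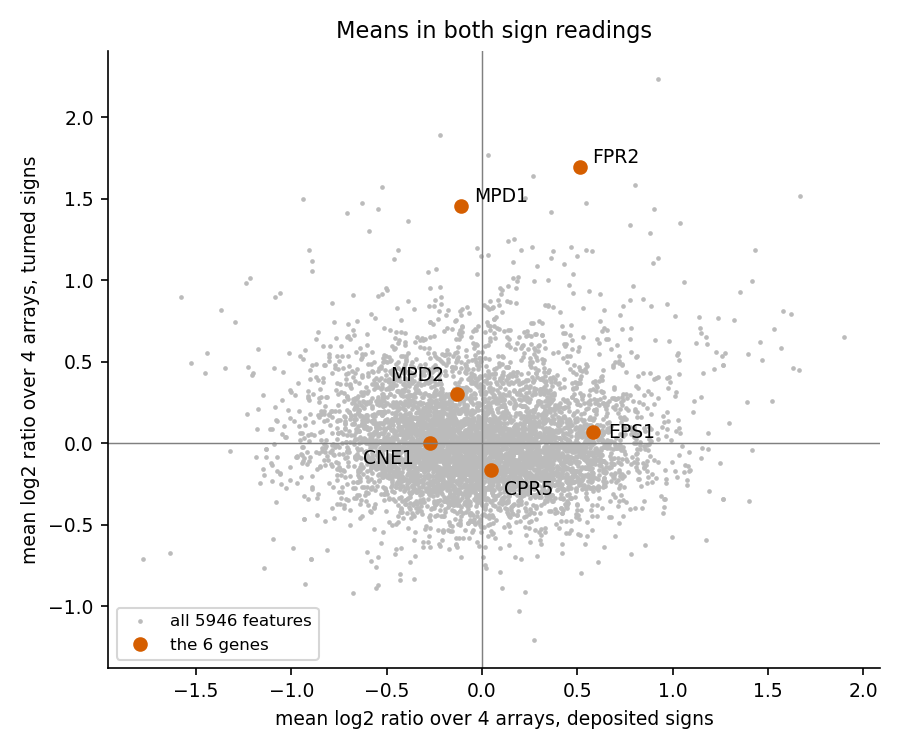
Mean log2 ratio over the 4 arrays in deposited signs (horizontal axis) and turned signs (vertical axis) for all 5946 features (grey) and the 6 genes (orange). FPR2 and MPD1 lie near the top of the turned axis at 1.70 and 1.45, EPS1 lies to the right at 0.58, and MPD2, CNE1 and CPR5 lie within the mass of features.

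Arrays 1 and 2 had about double the spread of arrays 3 and 4, with SDs over all probes of 0.87 and 0.95, against 0.46 and 0.47. Places among all features on the same array were therefore compared as well. MPD1 lay at the 99.0th, 86.1st, 93.7th and 99.8th percentiles of the turned values of arrays 1 to 4, with rank 12 from the top on array 4. FPR2 lay at the 93.0th, 99.7th, 98.0th and 94.2nd percentiles. MPD2 kept to a middle band, between the 59.1st and 77.2nd percentiles. EPS1 ran from the 7.87th percentile on array 1 to the 87.5th on array 2, and CNE1 from the 15.4th on array 2 to the 76.3rd on array 4. CPR5 was between 28.6 and 51.8. By the turned mean FPR2 had rank 4 and MPD1 rank 13 from the top among 5946 features. By the deposited mean EPS1 was the highest member, at the 92.2nd percentile.

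**Figure D3:**
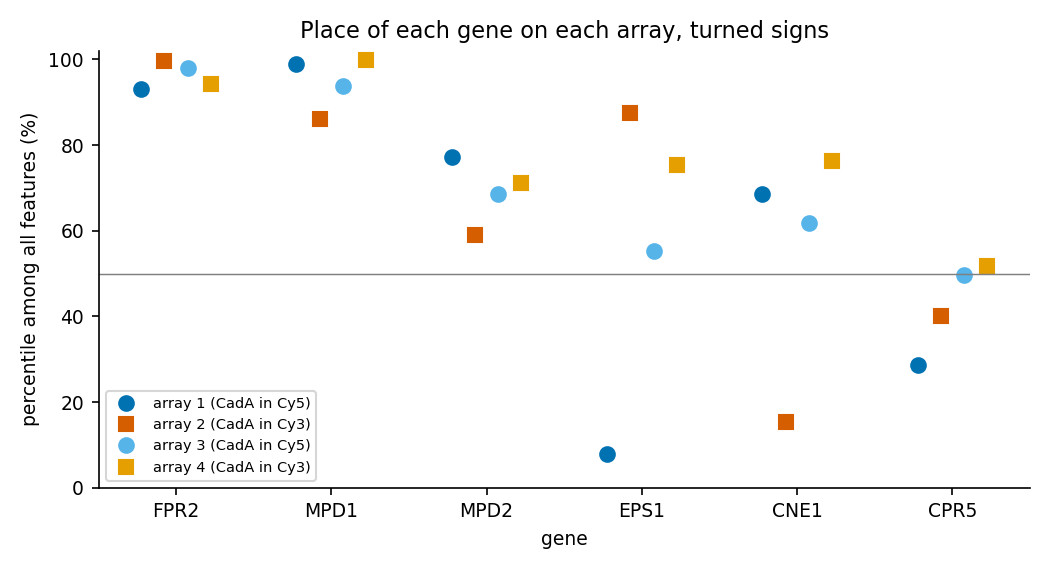
Percentile of each gene among all features on each array in turned signs, with points coloured by array. The 4 points of FPR2 lie above 93 and those of MPD1 above 86, while EPS1 and CNE1 are spread over most of the scale.

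The place of the probes in the print blocks of the slide was not shared: the 6 probes lay in 6 different blocks. The block of MPD1 had turned medians of 0.57, -0.62, -0.23 and 0.18 on arrays 1 to 4. Relative to these medians MPD1 read 1.80, 1.54, 0.98 and 1.58, which spans a narrower range than the values before centring. With all blocks centred its mean was 1.48 (limma adjusted p = 0.41). The adjusted p of MPD1 ran from 0.35 to 1.00 and that of FPR2 from 0.31 to 1.00 over the alternatives tried in turned signs, and the means stayed above 0 for both. In deposited signs the mean of either gene changed sign between alternatives.

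**Figure D4:**
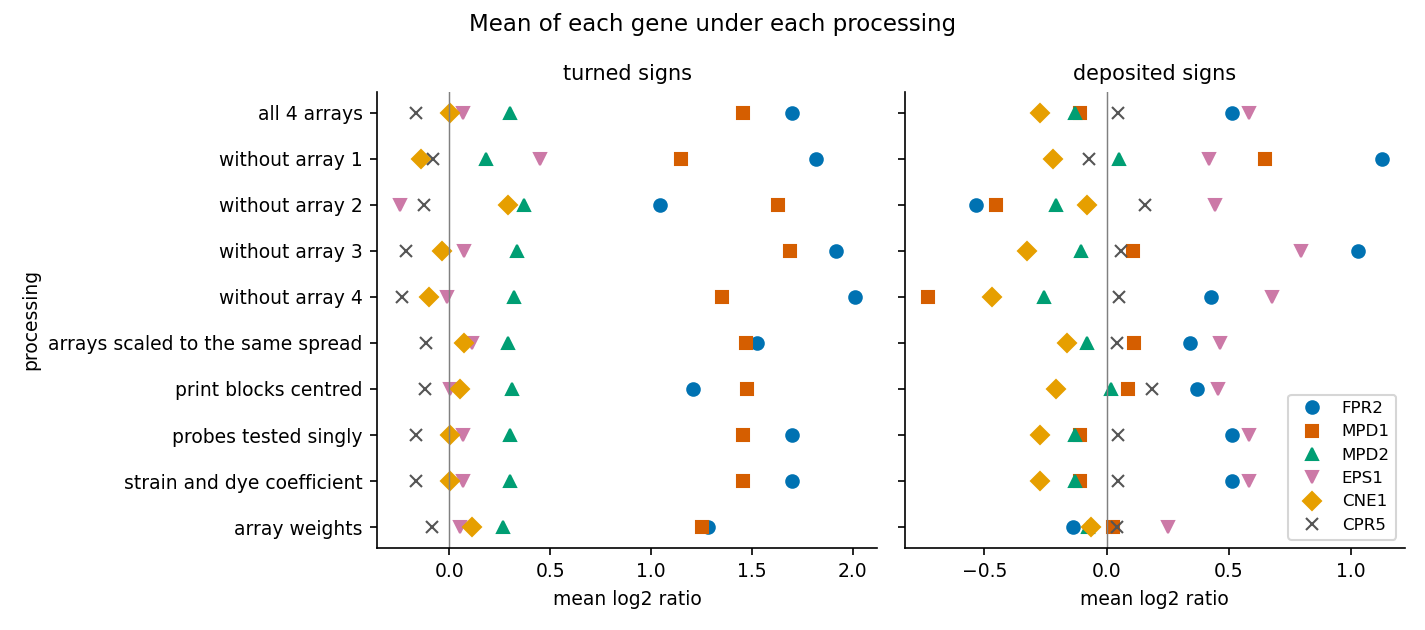
Mean log2 ratio of each gene (symbols) with all 4 arrays and under each alternative processing (rows), in turned signs on the left and deposited signs on the right. In turned signs FPR2 and MPD1 stay between 1.04 and 2.01; in deposited signs FPR2 runs from -0.54 to 1.13 and MPD1 from -0.73 to 0.65.

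Other genes of the same steps were looked up in lists made from general knowledge, but with earlier results of these data known. Of 7 genes for disulphide formation in the ER, the 3 members were the ones measured, since PDI1, EUG1, ERO1 and ERV2 had no value under these names. All 5 prolyl isomerases with a place in the ER or the secretory route were measured. FPR2 was the single one of them with a positive turned mean, against 47.4% of all features. The turned means of CPR2 and CPR4 changed sign under some alternatives. CPR2, a cyclophilin closely related to CPR5, averaged -0.13 ± 0.44 in turned signs (SD, n = 4), CPR4 -0.02 ± 0.17 and CPR8 -0.39 ± 0.79, or -0.04 without array 2. None of these 5 passed the adjusted threshold in limma in either reading, and the median of their turned means was -0.13. In deposited signs FPR2, CPR2 and CPR5 had positive means, as did 46.5% of all features. CPR2 averaged 0.29 ± 0.32 in that reading, and the median of the 5 was 0.05.

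Of 10 genes for lectins and glycan trimming in the ER, 5 were measured, and 2 of them had a positive turned mean, against 47.4% of all features. CWH41, the glucosidase that removes the first glucose from the glycan, averaged 0.03 ± 0.51 in turned signs and 0.41 ± 0.20 in deposited signs, where it was positive on all 4 arrays. MNS1, the ER mannosidase, averaged -0.09 ± 0.59 in turned and 0.40 ± 0.38 in deposited signs, again with 4 of 4 arrays positive in deposited signs. Of all features, 12.4% were positive on all 4 arrays in deposited signs. KRE5 averaged -0.05 ± 0.45 in turned signs and YOS9, a lectin of ER-associated degradation, -0.48 ± 0.77, or -0.15 without array 2. The median of the 5 turned means, CNE1 included, was -0.05, against 0.28 in deposited signs. There 3 of 5 means were positive, against 46.5% of all features. No gene of the list passed in limma in either reading.

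The list of the ER Hsp70 and its partners, by comparison, had 4 of 7 genes measured. All 4 had a positive turned mean, against 47.4% of all features. KAR2 is among these 4, and its turned mean is positive because its side was taken as the positive one. The median of the turned means was 0.79, against -0.015 over all features. In deposited signs 2 of these 4 means were positive, against 46.5% of all features, and the median was 0.20. An unadjusted limma p below 0.05 was reached by 0 of 4 in deposited signs, against 11.7% of all features. The Hsp70-related gene LHS1 was highest, with -0.32, 2.91, 2.17 and 1.14 on arrays 1 to 4 and a mean of 1.47 ± 1.40, and SEC63 was lowest at 0.21 ± 0.31. KAR2 read 0.28, 0.80, 0.85 and 2.23 and averaged 1.04 ± 0.84, or 0.64 without array 4. None passed the adjusted threshold in limma. KAR2 and LHS1, like MPD1 and FPR2, had an unadjusted limma p below 0.05 in turned signs, against 1.88% of all features. The signalling list had 1 of 4 genes measured, the phosphatase gene PTC2, at -0.23 ± 0.44 in turned signs (-0.02 without array 2) and -0.14 ± 0.49 in deposited signs. IRE1 and HAC1 had no value under their names.

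Relatives mostly outside the ER and the secretory route were listed for comparison. Of 8 prolyl isomerases of the cytosol, nucleus and mitochondrion 4 were measured, with a median of 0.02 in turned and -0.12 in deposited signs. FPR3, a nucleolar isomerase of the same FK506-binding family as FPR2, was positive on all 4 arrays, with 1.54, 0.50, 0.25 and 0.55 and a mean of 0.71 ± 0.57, or 0.43 without array 1. These are turned values, with an unadjusted limma p of 0.045, and in deposited signs FPR3 averaged -0.19 ± 0.97. The lowest in turned signs was the cytosolic cyclophilin gene CPR1 at -0.11 ± 0.37. Of 16 thioredoxin, glutaredoxin and related redox genes 8 were measured, with a median of -0.05 in turned and -0.16 in deposited signs. In either reading 3 of these means were positive, against 47.4% of all features in turned and 46.5% in deposited signs. GRX7, a glutaredoxin of the secretory route, was highest in turned signs at 0.43 ± 1.07, or -0.04 without array 1. In deposited signs it was negative on all 4 arrays and averaged -0.79 ± 0.75, with an unadjusted limma p of 0.038. GRX8 was lowest in turned signs at -0.28 ± 0.93, or 0.16 without array 2. None of these 12 genes passed in limma in either reading.

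**Figure D5:**
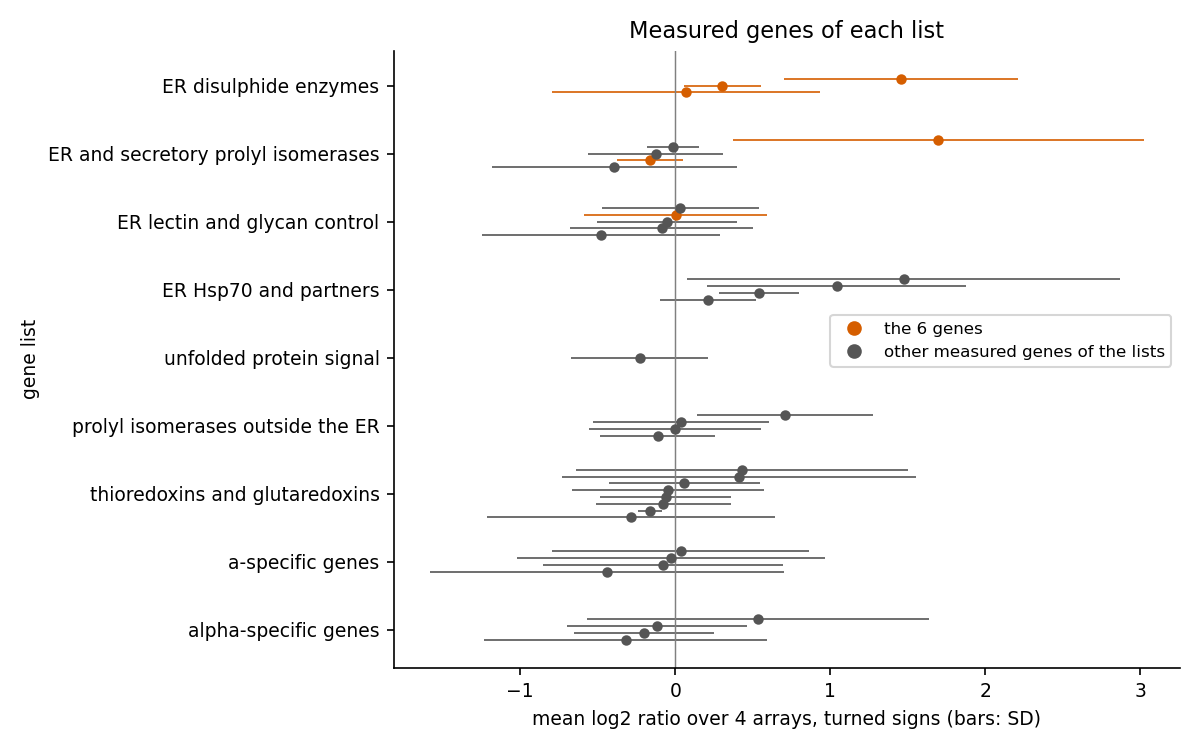
Mean log2 ratio over 4 arrays in turned signs (points) with the SD (bars) for every measured gene of each list, the 6 genes in orange. FPR2 at 1.70 lies apart from the other secretory prolyl isomerases, between -0.39 and -0.02, and the 4 genes of the ER Hsp70 list all lie above 0. KAR2 is among these 4, and its side was taken as the positive one.

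The named genes with the most similar values over the 4 arrays were found by Euclidean distance on the log2 scale, which is the same in both sign readings. It covers 4 arrays of unequal spread. No gene lay within a distance of 1 of MPD1. The nearest was COS10 at 1.13, with turned values of 1.68, 0.14, 0.99 and 1.39, followed by ERP2, a p24 protein of vesicles between ER and Golgi, at 1.27 and ADD37 at 1.45. FPR2 had 1 gene within that distance, PAU20 at 0.90, with turned values of 1.39, 2.77, 1.17 and 0.68. It was followed by FLC1 at 1.01 and URA1, of pyrimidine synthesis, at 1.21, both with their highest value on array 2, at 3.91 and 4.57. The values compared were not centred on print blocks, and the block of FPR2 had a median of 1.53 on array 2. Whether position on the slide bears on these distances was not tested. COS10 and PAU20 belong to families of near-identical genes, so their probes may have read several copies. MPD1 and FPR2 themselves lay 3.10 apart, and 30.0% of the named genes lay nearer to MPD1 than FPR2 did. Among those nearer to MPD1 were KAR2 at 2.15, MPD2 at 2.49 and CNE1 at 3.07.

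The distance is not scaled to the size of the values, and the other members, with mostly smaller values, had more genes near them. Of the 3098 other named genes, 800 lay within a distance of 1 of MPD2, 1102 of CPR5, 828 of CNE1 and 299 of EPS1. The nearest to MPD2 were SOH1, IOC2 and SIP3, at 0.10 to 0.14. Those nearest to EPS1 were SPT23, LAP2 and MIG1, each with a value below -1.0 on array 1 in turned signs, at 0.31 to 0.33. SWD3, OM45 and PSY3 were nearest to CPR5, at 0.11 to 0.19, and PCL9, APL5 and VMA16 to CNE1, at 0.11 to 0.20.

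Genes next to the members in the R64 annotation were looked at for their position alone. FPR2 lies between EUG1, which had no value under its name, and URC2, which averaged 0.53 ± 1.06 in turned signs and was high on array 2, at 1.94, with a mean of 0.06 without that array. MPD1 lies between RRP36 at -0.30 ± 0.69 and YOR289W at 0.41 ± 0.28, the second of which was positive on all 4 arrays. HAL9 and DUF1 beside MPD2 averaged 0.06 ± 0.26 and -0.10 ± 0.45. The neighbours of EPS1, CPR5 and CNE1 had no value under their names.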

How the data were processed

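The authors deposited 1 normalized log ratio per probe and array for 4 yeast arrays read in both colours, made with limma 3.2.1 per the submitters' processing notes. The ratio was taken as log2 because limma uses that base, which the deposited table does not state, and folds assume it. No source used here gives the normalization, the background correction or the numerator dye. Labelling was indirect through aminoallyl-dUTP, per the labels' protocols. The number of arrays limits the precision.

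Of 6216 probes, 3344 had 1 symbol, 387 several and 2485 none in the platform annotation. Gene identifiers were used to bring symbols to those of the R64 table (3343 matched). All 4 columns matched 1 sample each. Array medians lay between -0.09 and 0.02, and 54 probes had no value on any array. Probes of a gene were averaged, and features needed values on at least 3 arrays.

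For each feature limma 3.58.1, run in R 4.3.3, gave a two-sided moderated test of the mean against 0 (functions lmFit and eBayes). The p-values were adjusted by Benjamini-Hochberg over 5946 features, with a threshold of 0.05, in each sign reading. The fit was tested on simulated data. Alternatives left out each array, scaled arrays to 1 spread, centred print blocks, tested probes singly, added a dye coefficient or used array weights. Named genes are the members, KAR2, all measured genes of the 3 lists the members belong to, the highest and lowest of each other list the 3 nearest genes of each member and, added for their position, the 5 measured neighbours of members in the R64 annotation. The members and lists were chosen with earlier results of these data known. Sequences and coordinates are not given, because no genome of the probes' build was used here.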

Additional observations from a re-analysis of the deposited data

Results flagged for a closer look

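Among 48 named genes in 2 sign readings, 96 sets of 4 arrays were tested for a single array far from the others, by whether Dixon's ratio of gap to range exceeded its critical value at 95% confidence. About 1 in 20 such sets passes by chance, and 3 of 96 passed. None of the 6 members was among them, though FPR2 read 3.66 on array 2 in turned signs, against 1.33, 1.04 and 0.76 on the others. FLC1, near FPR2 in its values, read 3.91 on array 2 in turned signs, against 0.63, 0.50 and 0.33 on the others (ratio 0.915). SIP3, near MPD2, read 0.74 on array 1 in turned signs, against 0.22, 0.22 and 0.23 on the others (ratio 0.967). YOS9, the degradation lectin listed with CNE1, read -1.47 on array 2 in deposited signs, against 0.51, 0.33 and 0.39 on the others (ratio 0.912).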

How the results depend on the processing

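No member passed the adjusted threshold under any of the 9 alternatives, in either reading. In turned signs the number of features called over the whole table was 0 to 1 when 1 array was left out and 4 with array weights, none of them a member. The means of FPR2, MPD1, MPD2 and CPR5 kept their sign in turned signs. Leaving out 1 array gave 0.16 to 0.33 for the median of the member means, -0.14 to 0.29 for CNE1 and -0.24 to 0.45 for EPS1 in turned signs. In deposited signs it gave -0.73 to 0.65 for MPD1, -0.25 to 0.049 for MPD2, -0.54 to 1.13 for FPR2, -0.072 to 0.16 for CPR5 and -0.14 to 0.23 for the median of the member means. That median was also positive with arrays scaled to 1 spread, at 0.077, and with print blocks centred, at 0.14. MPD1 in deposited signs was 0.11 when scaled, 0.087 with blocks centred and 0.028 with array weights. MPD2 was 0.017 with blocks centred, and FPR2 was -0.14 with array weights. The cause of these changes was not tested. Of 42 other named genes, 21 changed sign under some alternative in turned signs and 23 in deposited signs. Each ratio already pairs both strains on 1 array, and no block over replicate numbers could be added because the arrays form 1 group.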

Other observations

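W303-1A is of mating type a, and ratios between its derivatives cannot show the level of mating-type genes. Of 7 a-specific genes 4 were measured, with turned means between AGA2 at -0.44 ± 1.14, or -0.03 without array 2, and MFA1 at 0.03 ± 0.83 (SD, n = 4). All 4 alpha-specific genes were measured, between SAG1 at -0.32 ± 0.91 and MF(ALPHA)1 at 0.53 ± 1.10 in turned signs. Without array 1 these 2 means were 0.04 and 0.006. In deposited signs 3 of the 4 a-specific genes had negative means and an unadjusted limma p below 0.05, beside 11.7% of all features in either direction, and the median of the 4 means was -0.71. Of the alpha-specific genes 1 had such a p in deposited signs, SAG1, which was positive on all 4 arrays at 0.73 ± 0.51 (limma unadjusted p = 0.023). None passed the adjusted threshold in either reading.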
